A study of Mus musculus with 4 samples.

Results

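Blood mononuclear cells taken 24 h into cerulein-induced acute pancreatitis were compared with those taken at 12 h. The comparison rests on the cells of those times in which mitochondrial genes made up at most 10% of the unique molecular identifiers (UMIs), 22398 cells of the 48032 that passed the same limit in all 4 libraries of the series. There were 11027 such cells at 12 h and 11371 at 24 h. Both libraries are labelled as blood of wild-type C57BL/6J mice aged 6 to 8 weeks that had received 7 intraperitoneal doses of cerulein, given as 60 mg/kg in the series' design text. The other libraries, used only as levels beside the comparison, are an untreated control at 0 h and a recovery library labelled 96 h, which the design text places at 168 h. Mononuclear cells were separated on a Ficoll gradient, which removes most neutrophils, and were read by single-cell RNA sequencing in droplets from the 5′ end. One library was made per time and the labels do not say how many animals each holds, so the sizes of differences are described and no test between times was possible. All intervals are at 95% and cover counting error only.

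Cerulein is a cholecystokinin analogue that overstimulates the acinar cells of the pancreas, and the injured gland releases signals that reach the blood and bone marrow. Circulating monocytes answer such signals with inflammatory cytokines and chemokines. Immediate early genes are switched on within minutes of a stimulus without new protein synthesis, NF-kB targets include the feedback inhibitors of that pathway, and type I interferon response genes follow signalling through the interferon receptor.

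Cells were assigned to 4 gates by raw UMIs. The T gate asked for at least 2 UMIs of Cd3e, Cd3d and Cd3g together, subunits of the T cell receptor complex. The B gate asked for at least 3 of Cd79b, Ms4a1 and Fcmr, and the myeloid gate for at least 5000 CPM (counts scaled to a common total) of lysozyme, Lyz2. The NK gate asked for at least 4 UMIs of Nkg7 and Gzmm with none of Cd3d or Cd3g. A cell could pass several gates, and 811 cells did at 12 h and 579 at 24 h, while 326 and 225 passed none. Markers of myeloid and NK cells that the gates did not use were highest where their labels place them at both times. Csf1r stood at 746 and 973 CPM in the myeloid gate, and Klrd1 at 868 and 928 in the NK gate.

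The median cell held 4100 UMIs at 12 h and 5057 at 24 h. The barcode list deposited for 24 h is identical to that of 12 h (11663 barcodes shared, for 12588 matrix columns at 24 h), but no cell of one time had the counts of a cell of the other. The labels name mouse, whereas the gene names follow rat usage for the histocompatibility complex, with 28 names beginning RT1- and 0 beginning H2-. Cd8a was as high in the NK gate as in the T gate (600 and 756 CPM against 563 and 465), where Cd8b was 7.63 and 3.29 CPM against 167 and 135. Cd4 was higher in the myeloid gate (44.3 and 29.2 CPM) than in the T gate (20.6 and 14.6). Rat NK cells are known to carry Cd8a and rat monocytes Cd4. The species was not tested further, and gene symbols are given as deposited.

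Myeloid cells made up more of the sequenced mononuclear cells at 24 h than at 12 h, and NK and B cells made up less. The myeloid gate held 36.01% of cells in the control, 35.92% (35.02 to 36.82) at 12 h, 44.98% (44.07 to 45.90) at 24 h and 16.57% at 96 h, so that 24 h was the highest of the 4. Its share at 24 h was 1.25 times that at 12 h (interval 1.21 to 1.29). The NK gate held 3.47%, 8.25%, 4.44% and 4.46% in the same order. The 12 h library thus stood apart for NK cells, and the ratio of 24 h to 12 h was 0.538 (0.484 to 0.598). The B gate held 33.72%, 37.54%, 29.77% and 36.67%, a ratio of 0.793 (0.764 to 0.823). The T gate held 31.62%, 22.87%, 23.96% and 47.26%. Both pancreatitis times were below the control and 96 h libraries for T cells, and their ratio of 1.05 had an interval (0.999 to 1.10) that reached 1. Since these are shares, a gain of one cell type and a loss of the others cannot be told apart.

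**Figure D1:**
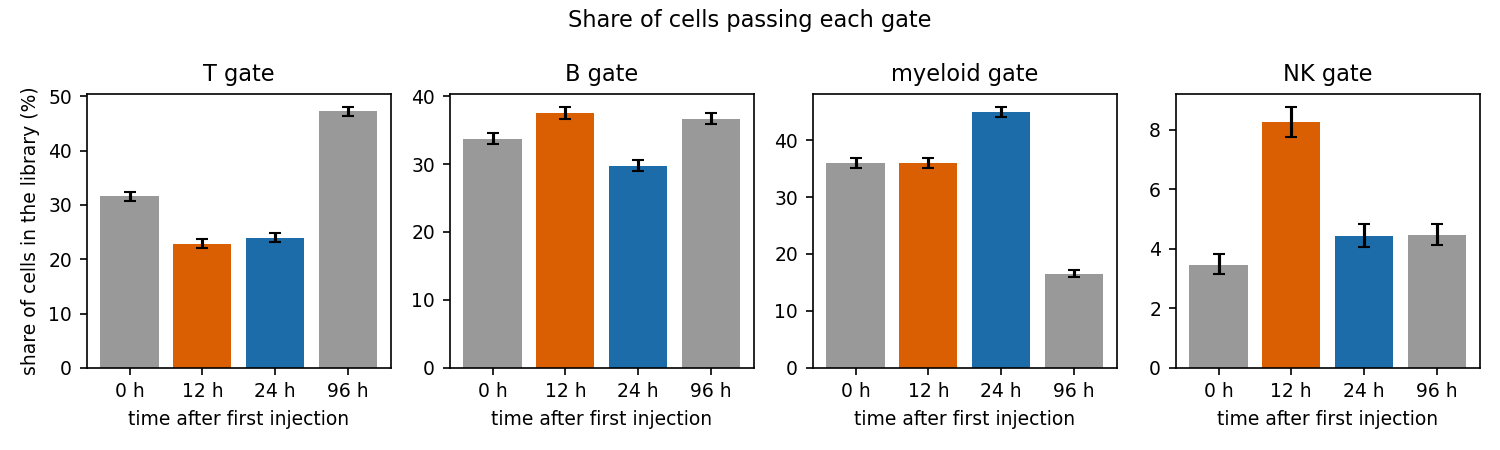
Share of cells (%) that passed each gate in the 4 libraries, by time; bars are shares and whiskers exact binomial (Clopper-Pearson) intervals of counting error. The 24 h library has the highest myeloid share (44.98%) and the 12 h library the highest NK share (8.25%).

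Depth differed between the times, since the median myeloid cell held 4345 UMIs at 12 h and 6438 at 24 h, and the median NK cell 4394 and 6224. With every cell thinned to 2000 UMIs, which left out 243 and 404 shallower cells, the myeloid share was 35.92% and 44.69% and the NK share 8.61% and 4.89%. The B share was 33.83% and 26.75% and the T share 19.81% and 21.07% after thinning. With mitochondrial UMIs limited to 5%, which kept 1794 and 1140 cells, the ratio of shares was 0.511 for B cells and 0.769 for T cells.

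Within each gate, UMIs were summed over cells and scaled to CPM. In the myeloid gate, of 2429 genes with a mean of at least 50 CPM, 34 were at least 2-fold higher at 24 h (1.4%) and 35 at least 2-fold lower (1.44%). In the NK gate 18 (0.745%) were higher and 24 (0.993%) lower of 2417, in the T gate 10 (0.501%) and 22 (1.1%) of 1998, and in the B gate 6 (0.248%) and 11 (0.455%) of 2416. Scaling by the median of ratios in place of the total removed a shift of −0.19 (log2) common to all genes in the T gate and of −0.18 in the myeloid gate, and made the split 15 higher and 12 lower in the T gate, 9 and 9 in the B gate, and 51 and 18 in the myeloid gate.

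In myeloid cells the genes of acute inflammation were higher at 24 h. The interleukin 1 beta gene, Il1b, stood at 171 CPM in the control, 109 at 12 h, 475 at 24 h and 143 at 96 h, which put the 24 h library above the other 3. The ratio of 24 h to 12 h was 4.37 (4.20 to 4.55), and after thinning 15.3% of myeloid cells held an Il1b UMI at 12 h and 36.8% at 24 h. Cxcl2, which encodes a neutrophil-attracting chemokine, was 23.0, 51.6, 183 and 20.7 CPM in the same order, so both pancreatitis times were above the other libraries and the ratio between them was 3.55 (3.34 to 3.77). Acod1, whose enzyme makes itaconate from a citric acid cycle intermediate, was near absent outside 24 h, with 1.15 CPM in the control, 0.438 at 12 h (11 UMIs), 44.8 at 24 h (1768 UMIs) and 1.16 at 96 h. Its ratio of 102 had an interval from 57.0 to 205 because of the few UMIs at 12 h.

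Of the 13 measured members of the acute inflammation list, 9 were at least 1.5-fold higher at 24 h and 2 lower, where measured means a mean of at least 5 CPM and at least 20 UMIs over both times. Among all 7425 genes that passed this filter in the myeloid gate, 3.73% were 1.5-fold higher and 10.2% lower. The list's median log2 ratio was 1.15 and that of all genes −0.17. The prostaglandin synthase gene Ptgs2 (1.99 to 13 CPM, ratio 6.52), the chemokine gene Cxcl1 (1.47 to 10.8 CPM, 7.34) and the lectin receptor gene Clec4e (5.54 to 24.6 CPM, 4.44) were among the higher members. The Ccl3 level was 226, 120, 267 and 129 CPM from the control to 96 h, lowest at 12 h and highest at 24 h. Ccl4 (8.52 and 7.43 CPM) and the interleukin 1 receptor antagonist gene Il1rn (169 and 218 CPM, ratio 1.29) stayed within 1.5-fold, and Tnf was too low to enter the count, with 11 UMIs at each time.

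The 2 lower members were S100a8 and S100a9, which encode the subunits of calprotectin, an abundant cytosolic protein of neutrophils and classical monocytes. S100a8 in the myeloid gate was 250 CPM in the control, 9373 at 12 h, 2239 at 24 h and 695 at 96 h, and S100a9 was 223, 6402, 1898 and 493. Both were highest at 12 h and at 24 h still exceeded the control and 96 h levels. The ratios of 24 h to 12 h were 0.239 (0.237 to 0.241) and 0.296 (0.294 to 0.299). Weighting each cell equally rather than by its UMIs gave 0.577 for S100a8. Il1r2, a decoy receptor that binds interleukin 1 without signalling, was 5.00, 112, 23.6 and 4.12 CPM, a ratio of 0.212 (0.197 to 0.228), and with each cell weighted equally its ratio was 1.04.

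Immediate early genes were higher at 24 h in the myeloid gate, with 13 of 18 measured members at least 1.5-fold higher, 0 lower and a median log2 ratio of 0.93. Fosb, a partner of Jun proteins in the AP-1 factor, was 50.3 CPM in the control, 5.58 at 12 h, 54.2 at 24 h and 21.0 at 96 h. Egr1, a zinc finger factor, was 151, 23.0, 85.0 and 223 CPM, a ratio of 3.69 (3.38 to 4.04). Dusp1, a phosphatase that switches off MAP kinases, was 2203, 1172, 2403 and 1648 CPM. For these genes the 12 h library was the low one and 24 h was near or below the control. In the 4-library order, 12 h was lowest for 14 of the 18 members, against 1173 of 7425 genes in all. The 24 h library was highest for 6 members, against 814 of 7425. The extremes of the list at 24 h over 12 h were Fosb (9.73) and Klf6 (0.808).

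NF-kB targets showed 11 of 16 measured members higher and 0 lower (median log2 ratio 0.70) in the myeloid gate. Tnfaip3, a deubiquitinating enzyme that ends NF-kB signalling, was 19.3, 8.88, 22.3 and 10.8 CPM from the control to 96 h, a ratio of 2.51 (2.16 to 2.92). The inhibitor Nfkbia was 2116, 1238, 1913 and 1208 CPM and the adhesion molecule Icam1 was 82.5, 48.2, 115 and 61.8. The maturation marker Cd83 was the lowest member (0.753). For 10 of the 16 members 24 h was the highest of the 4 libraries, against 814 of 7425 genes in all. For 9 of the 16 members 12 h was the lowest, against 1173 of 7425.

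**Figure D2:**
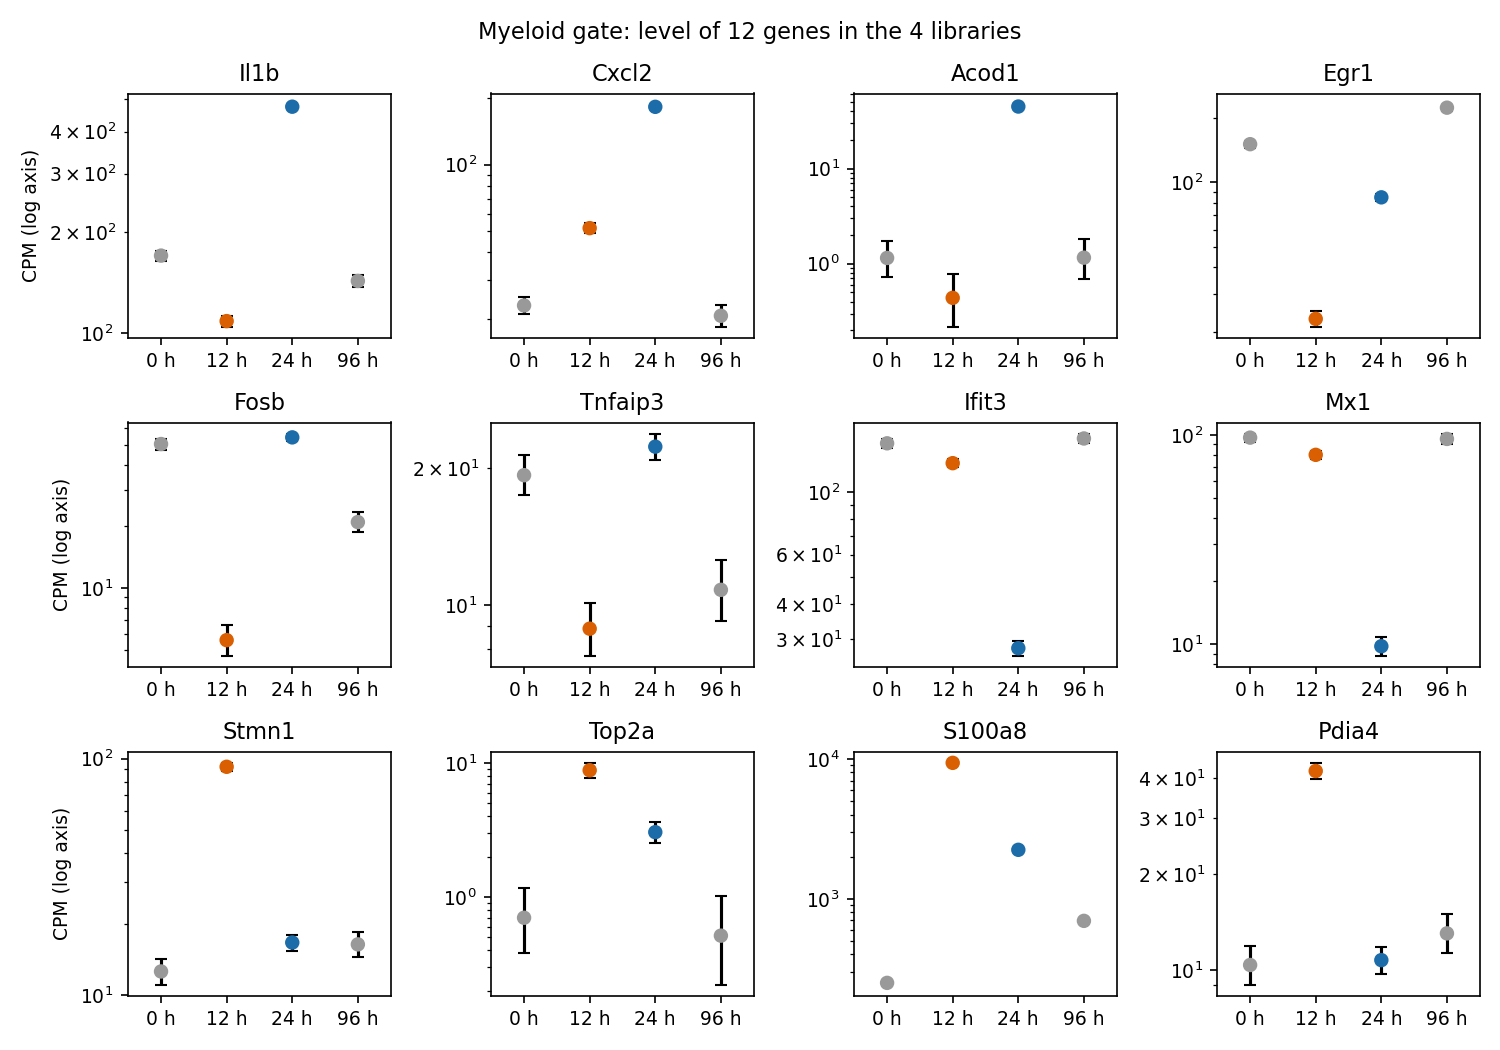
Level of 12 genes in the myeloid gate (CPM, log axis) in the 4 libraries by time, with exact Poisson intervals of counting error; 12 h is orange, 24 h blue and the other libraries grey. Il1b and Acod1 peak at 24 h (475 and 44.8 CPM), Ifit3 and Mx1 have their lowest value there (27.9 and 9.76 CPM), and Stmn1, Top2a, S100a8 and Pdia4 peak at 12 h.

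Interferon response genes were lower at 24 h. In the myeloid gate 15 of 18 measured members were at least 1.5-fold lower and 0 higher (median log2 ratio −1.36). Ifit3, an RNA-binding antiviral protein, was 149, 127, 27.9 and 155 CPM from the control to 96 h. Mx1, an antiviral GTPase, was 96.9, 80.2, 9.76 and 95.5 CPM, and its relative Mx2 was 33.5, 23.5, 1.62 and 25.5 with the smallest ratio of the list (0.0689, 0.0524 to 0.0893). The factor Irf7, which amplifies interferon production, was 70.6, 56.4, 9.43 and 59.5 CPM. The 24 h library stood alone as the low one for these 4 genes, while 12 h was nearer the control. It was the lowest of the 4 libraries for 17 of the 18 members, against 3218 of 7425 genes in all. With mitochondrial UMIs limited to 5% the list median was −0.45 and the Ifit3 ratio 0.524 (0.221 in the whole gate), and with equal weight per cell the Ifit3 ratio was 0.344. Oas1a, which senses double-stranded RNA, was the member for which 24 h was not the lowest library, at 13.4, 51.6, 47.3 and 16.7 CPM. Its ratio of 0.918 was the largest of the list, and Ifi27 (0.796) and Irf9 (0.716) also stayed within 1.5-fold.

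Cell cycle genes were lower at 24 h in the myeloid gate, with 16 of 19 measured members lower, 0 higher and a median log2 ratio of −1.53. The microtubule regulator Stmn1 was 12.6 CPM in the control, 92.4 at 12 h, 16.7 at 24 h and 16.4 at 96 h, a ratio of 0.181 (0.166 to 0.197). Its ratio was 0.100 in cells of 1 gate, 0.073 with mitochondrial UMIs limited to 5%, 0.305 with equal weight per cell and 0.276 without dividing cells. Top2a, the topoisomerase of dividing cells, was 0.700, 8.80, 3.04 and 0.515 CPM, and Cdkn3 was 1.20, 52.7, 4.69 and 2.57, the smallest ratio of the list (0.0890). Cells with a UMI of Mki67 or Top2a were 6.69% (5.93 to 7.51) of the myeloid gate at 12 h and 3.07% (2.61 to 3.58) at 24 h, or 1.83% and 0.775% after thinning. In cells of the B gate alone, the share was 1.20% and 0.973%, and 0.537% and 0.615% after thinning, with a median of 2918 and 3027 UMIs per cell before it. The thinned 24 h myeloid share was thus close to the level in B gate cells, and the 12 h share was above it. Without the cells that held such a UMI the list's median was −0.90.

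Genes of the unfolded protein response, which raises the folding capacity of the endoplasmic reticulum, were lower as well (7 of 13 lower, 0 higher, median log2 ratio −0.61). The disulfide isomerase Pdia4 was 10.4, 42.1, 10.8 and 13.1 CPM, Pdia6 was 122, 408, 149 and 141, and the chaperone Hspa5 was 258, 451, 256 and 340. Each was highest at 12 h, with 24 h near the control. Atf4 (1.10) and Ddit3 (1.01), factors of the stress-induced translation branch, were level between the times.

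The genes with the largest ratios among those above 50 CPM were led by Arl5c, a small GTPase of the ARF-like family, at 44.0, 26.2, 163 and 47.7 CPM (ratio 6.22, 5.74 to 6.75). Clec10a, a lectin that binds galactose-type sugars, was 50.4, 17.8, 92.0 and 62.5 CPM (5.18), and Slc2a6, a member of the glucose transporter family, was 35.9, 31.6, 114 and 38.0 (3.61). All 3 were highest at 24 h. With mitochondrial UMIs limited to 5%, the ratio was 2.32 for Clec10a, 6.40 for Slc2a6, 2.16 for Cxcl2 and 0.474 for Slfn4. At the other end stood Slfn4, a Schlafen family gene of myeloid cells (821, 609, 132 and 499 CPM, ratio 0.216), and Ca5b, a mitochondrial carbonic anhydrase (34.5, 99.8, 18.5 and 119 CPM, ratio 0.185). Among lipid handling genes, 4 of 10 were higher and 1 lower, the extremes being the lipoprotein lipase gene Lpl (3.43 to 34.6 CPM, ratio 10.1) and the fatty acid carrier Fabp5 (19.7 to 7.10 CPM, 0.361). Glucocorticoid response genes were mixed, with 6 of 15 higher and 2 lower, and included the steroid receptor co-chaperone Fkbp5 (9.85, 37.6, 110 and 24.4 CPM) and the metallothionein Mt2A (13.1, 40.3, 136 and 18.6 CPM), both highest at 24 h.

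The myeloid gate was then divided by 2 genes that classical monocytes express. Cells with at least 1000 CPM of Fn1 and Vcan together were 31.2% (29.7 to 32.7) of the gate at 12 h and 38.7% (37.4 to 40.0) at 24 h. After thinning the shares were 38.3% and 44.2%. The threshold was set after the values were seen, and 26.5% and 20.4% of the divided cells lay between 500 and 2000 CPM. In cells of the B gate alone, 0.0573% and 0.134% passed it, or 0.417% and 1.45% after thinning. Cells below it made up 66.2% and 58.8%, and cells with at least 5 UMIs of neutrophil markers, left out of both parts, 2.63% and 2.54%.

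Of 2259 genes above 50 CPM in the Fn1/Vcan-high part, 50 were at least 2-fold higher (2.21%) and 64 lower (2.83%), and of 2536 in the low part 26 were higher (1.03%) and 26 lower (1.03%). Both parts showed the pattern of the whole gate in the main lists. Interferon response genes were lower for 14 of 18 members in the Fn1/Vcan-high part (15.4% of all its genes were lower) and for 17 of 19 in the low part (7.81%), where 1 was higher, with medians of −1.39 and −1.0. Immediate early genes were higher for 15 of 18 in the high part (5.07% of all its genes) and 11 of 17 in the low part (2.76%). NF-kB targets were higher for 13 of 16 and 6 of 16, with medians of 1.0 and 0.38, and 1 was lower in the low part. The difference between the parts was not tested. Ifit3 was 64.0 and 6.91 CPM at 12 h and 24 h in the high part, and 189 and 50.8 in the low part.

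Il1b, Cxcl2 and S100a8 separated the parts further. Il1b was 109 and 604 CPM at 12 h and 24 h in the high part and 114 and 306 in the low part, so the parts began alike and ended apart. Cxcl2 was 74.7 and 270 CPM in the high part and 26.5 and 74.4 in the low part. S100a8 was 13136 and 1549 CPM in the high part but 1262 and 1333 in the low part, where its ratio was 1.06. Il1r2 followed S100a8, with 168 and 6.44 CPM in the high part and 26.0 and 31.2 in the low part. Stmn1 was lower in both, at 118 and 15.5 CPM and at 61.0 and 19.1. At 24 h the S100a8 level was thus alike in both parts, whereas at 12 h it was higher in the Fn1/Vcan-high part. Lpl was higher in the low part (4.91 to 60.7 CPM) than in the high part (1.89 to 13.9 CPM) at both times.

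**Figure D3:**
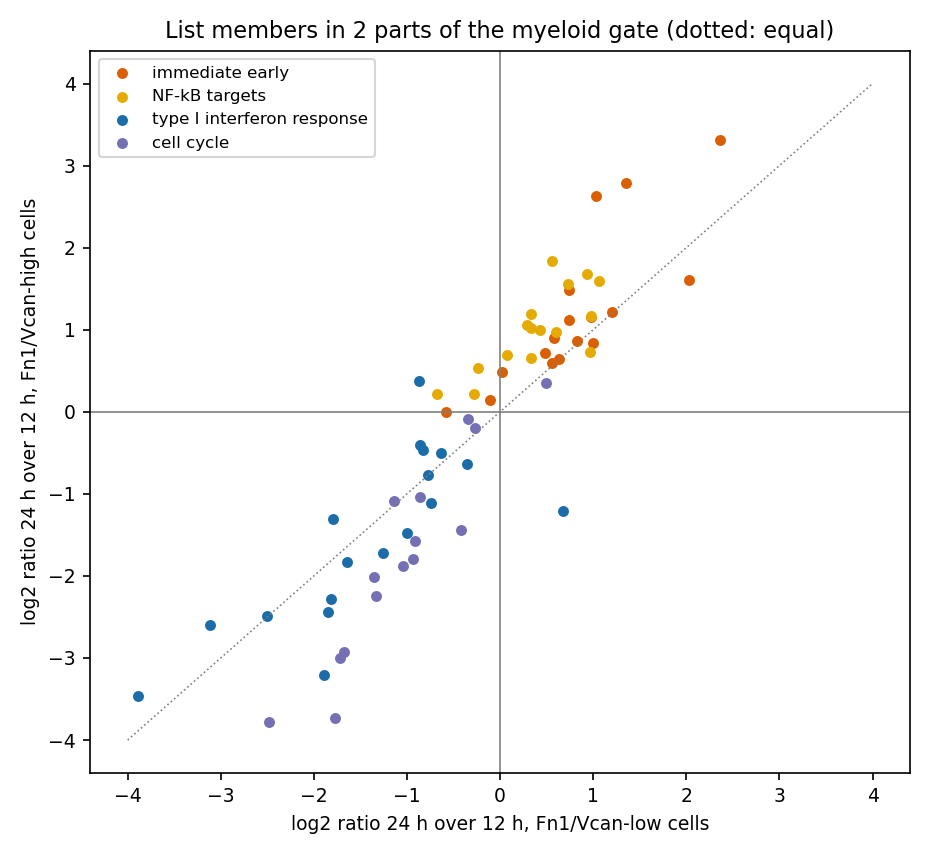
Log2 ratio of CPM (24 h over 12 h) of members of 4 lists in Fn1/Vcan-low cells (x axis) and Fn1/Vcan-high cells (y axis) of the myeloid gate; each point is a gene and the dotted line marks equal ratios. Interferon response and cell cycle genes lie mostly below 0 and immediate early and NF-kB genes mostly above 0 on both axes.

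Neutrophil-marked cells were few, 104 at 12 h and 130 at 24 h, and 1.09% and 0.671% of cells of the B gate alone carried the mark too. The mark counts Cxcr2, Mmp9, Mmp8, Retnlg, Camp, Ltf, Ngp, Lcn2 and Hdc together, which are not compared here. In marked cells S100a8 was 63296 and 27646 CPM. Il1b was 43.5 CPM (46 UMIs) at 12 h and 525 CPM (620 UMIs) at 24 h. Acod1 had 0 UMIs at 12 h and 101 at 24 h (85.6 CPM), a ratio of 30.2 with 0 set to a floor of 3 counts in the marked cells. Stmn1 was 180 CPM at 12 h and 4.24 CPM at 24 h (190 and 5 UMIs, of 2320 and 659 in the whole myeloid gate).

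NK cells differed in the opposite direction for cell cycle genes. Of 23 measured members, 21 were at least 1.5-fold higher at 24 h and 0 lower, where 4.8% of all 7895 genes measured in the NK gate were higher and 9.35% lower. The list's median log2 ratio was 1.26 and that of all genes −0.09. Stmn1 was 365 CPM in the control, 168 at 12 h, 638 at 24 h and 346 at 96 h, a ratio of 3.79 (3.49 to 4.11). Top2a was 76.8, 34.6, 140 and 79.0 CPM (ratio 4.06), and the cyclin-dependent kinase Cdk1 was 32.6, 16.5, 72.9 and 35.1 (4.40). In these genes 12 h was the lowest and 24 h the highest library, with the control and 96 h between and close together. The same order held for most of the list: 24 h was highest for 22 of 23 members and 12 h lowest for 17. Among all 7895 genes, 24 h was highest for 1682 and 12 h lowest for 1341.

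Cells with a UMI of Mki67 or Top2a made up 12.2% of the NK gate in the control, 7.80% (6.14 to 9.74) at 12 h, 18.6% (15.3 to 22.3) at 24 h and 10.1% at 96 h. After thinning the shares at 12 h and 24 h were 4.20% and 12.3%, above the share in B gate cells. The thymidylate synthase gene Tyms had the largest ratio of the list (4.65, 2.26 to 10.5, on 10 and 36 UMIs) and the mitotic cyclin Ccnb1 the smallest (1.10, 0.746 to 1.62). Fam111a, whose protein binds the replication clamp, was 26.5 and 107 CPM (ratio 4.04), and the subunit Cks2 of cyclin-dependent kinases was 42.0 and 136 (3.24). Without the cells holding Mki67 or Top2a the median of the list was 0.69, the ratios of Top2a, Fam111a and Cks2 were 1.53, 2.36 and 2.01, and the histone gene Hist1h2an, 104 and 331 CPM in all NK cells, had a ratio of 0.975.

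**Figure D4:**
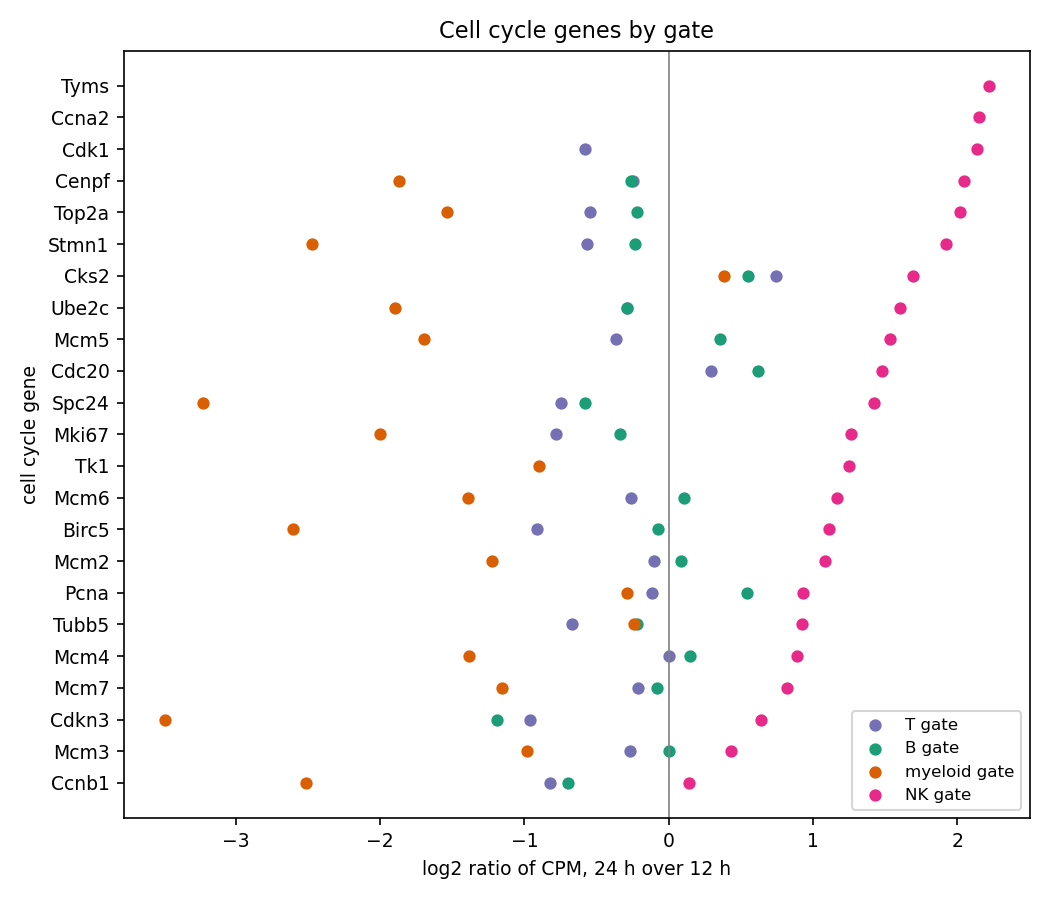
Log2 ratio of CPM (24 h over 12 h) of the cell cycle genes measured in the NK gate, ordered by their NK ratio, with the other gates where measured; each point is a gene in a gate. All NK points lie above 0, from Ccnb1 to Tyms, while the myeloid points lie below 0 except for Cks2.

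Cytotoxic genes of NK cells stayed within 1.5-fold. Of 13 measured members 0 were higher and 0 lower, with a median log2 ratio of 0.06, but Nkg7 and Gzmm are among the 13 and also define the gate. Granzyme A, Gzma, was 3167, 2387, 3433 and 2351 CPM from the control to 96 h (ratio 1.44, 1.40 to 1.48), and the pore-forming perforin gene Prf1 was 2623, 2207, 2447 and 2202 (1.11). The cathepsin Ctsw had the smallest ratio (0.760). Interferon response genes were lower for 12 of 18 members with 0 higher (median −0.65), led by Rtp4 (24.2 to 10.4 CPM, 0.431). Genes of the unfolded protein response were lower for 7 of 13 (median −0.74), Pdia4 being 25.9 and 9.04 CPM. In cells of 1 gate without the neutrophil mark, that list's median was −0.25. Immediate early genes were higher for 6 of 16, with Fosb at 4.45 and 22.2 CPM (21 and 81 UMIs), and the list median of 0.29 became −0.80 with mitochondrial UMIs limited to 5%. The trafficking list held 6 lower members of 15 and 0 higher, among them the selectin ligand Selplg (0.344, the smallest ratio) and the integrin chains Itga4 (0.575) and Itgb7 (0.532).

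The 6 genes that the naming rule placed lowest in the NK gate are known to be abundant in myeloid cells. S100a8 was 3976 and 1232 CPM, S100a9 was 2800 and 975, and Hp, haptoglobin, was 177 and 54.2. Anxa1 was 195 and 69.3 CPM, Serpinb1a 252 and 97.0, and Fcnb, a ficolin, 675 and 292. All 6 were lower than 40 CPM in control NK cells. There were 65 cells at 12 h and 30 at 24 h that passed both the NK and the myeloid gate. In cells of 1 gate without the neutrophil mark the ratio was 0.968 for Fcnb, 0.871 for Anxa1, 0.739 for Serpinb1a and 0.600 for Hp. In the whole gate these ratios were 0.434, 0.354, 0.385 and 0.306. They were 0.132, 0.144, 0.228 and 0.186 with cells marked as doublets removed. With mitochondrial UMIs limited to 5% they were 0.0109, 0.0336, 0.0998 and 0.0625, so settings moved the ratios in both directions. S100a8, with a ratio of 0.310 in the whole gate, was at 0.393 in cells of 1 gate without the neutrophil mark. It was at 0.812 in all cells of 1 gate, 0.636 with gate minimums doubled, 0.631 without dividing cells and 0.547 with equal weight per cell. With cells marked as doublets removed it was at 0.2725, and with mitochondrial UMIs limited to 5% at 0.111. S100a9, at 0.348 in the whole gate, was at 0.838 in all cells of 1 gate and 0.361 in those of them without the neutrophil mark. Its ratio was 0.684 with gate minimums doubled, 0.728 without dividing cells and 0.117 with mitochondrial UMIs limited to 5%.

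Cytotoxic genes were lower in the T gate at 24 h than at 12 h. Of 12 measured cytotoxic genes, 6 were at least 1.5-fold lower and 0 higher (median log2 ratio −0.81), where 8.73% of all 7483 genes in the T gate were lower and 1.46% higher, with a median of −0.19. The chemokine gene Ccl5 was 439 CPM in the control, 1592 at 12 h, 426 at 24 h and 614 at 96 h, a ratio of 0.268 (0.261 to 0.274). Granzyme K, Gzmk, was 67.6, 206, 55.7 and 72.8 CPM (0.271). In both genes the 12 h library was the high one and 24 h was near the control. Gzma, at 40.6, 55.8, 65.7 and 31.5 CPM, and Prf1, at 88.8, 113, 91.7 and 109, stayed within 1.5-fold. The receptor Cxcr3 (40.9 to 14.8 CPM, 0.363), which guides effector T cells to inflamed tissue, was also lower. The cytotoxic list was lower outside the T gate too. In the B gate 8 of 12 measured members were lower (median −0.63), where 4.07% of all genes were. In the myeloid gate 7 of 11 were lower and 1 higher (median −0.92), where 10.2% of all genes were lower. Ccl5 had ratios of 0.656 in the B gate and 0.521 in the myeloid gate. The part of RNA from other cells in the T gate ratios was not tested.

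Cells with at least 4 UMIs of Ccl5 and Nkg7 made up 2.67% of the T gate in the control, 10.7% (9.49 to 11.9) at 12 h, 3.82% (3.13 to 4.61) at 24 h and 4.37% at 96 h. After thinning the shares at 12 h and 24 h were 7.16% and 1.21%, and in cells of the B gate alone 0.831% and 0.168% carried the mark, or 0.239% and 0.0362% after thinning. Among these marked cells, 269 and 104 in number, Gzma was higher at 24 h (361 to 1024 CPM, ratio 2.84) and Gzmb was 165 and 168 CPM. Ccl5, by which the cells were chosen, is not compared within them, since the mark counts raw UMIs and marked cells held a median of 7219 UMIs at 12 h and 10561 at 24 h. Depth thus also bears on which cells carried the mark, and its part in the Gzma ratio was not tested. Cells with a UMI of Foxp3, the regulatory T cell factor, were 7.38% (6.39 to 8.47) of the gate at 12 h and 4.74% (3.97 to 5.60) at 24 h, against 0.315% and 0.0336% in cells of the B gate alone. After thinning the Foxp3 shares of the T gate were 4.35% and 2.86%.

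Immediate early genes were higher in the T gate for 9 of 15 members with 0 lower (median log2 ratio 0.72). Junb, an AP-1 subunit, was 584, 374, 914 and 693 CPM from the control to 96 h, a ratio of 2.45 (2.38 to 2.52). Zfp36, which destabilises cytokine messengers, was 120, 77.8, 200 and 104 CPM (2.57), and Fosb was 7.34, 1.86, 14.3 and 4.33 (7.72). For these 3 genes 12 h was the lowest and 24 h the highest library. The cytokine-signalling inhibitor Socs1 (58.2 to 113 CPM, 1.94), the G protein regulator Rgs1 (218 to 444 CPM, 2.04) and the surface ADP-ribosyltransferase Art2b (128 to 276 CPM, 2.16) completed the higher side. Leaving out the Ccl5/Nkg7-marked cells gave 2.39 for Junb, 2.56 for Zfp36 and 1.86 for Socs1.

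The lower side of the T gate held the actin-capping gene Capg (84.1, 172, 70.4 and 56.8 CPM, ratio 0.409), the integrin chain Itgb1 (137, 236, 107 and 127 CPM, 0.454) and Anxa1 (65.9, 154, 72.3 and 58.6 CPM, 0.470). These 3 were highest at 12 h, with 24 h close to or below the control. With mitochondrial UMIs limited to 5% the ratio was 0.647 for Capg and 0.893 for Itgb1. Galectin 9, Lgals9, was 65.2, 71.6, 31.6 and 70.0 CPM (0.442) and the transcription regulator Cited2 was 100.4, 124, 60.3 and 85.7 (0.487), both lowest at 24 h. Interferon response genes were lower for 12 of 18 members, 0 higher (median −0.87), with Rtp4 at 16.2 and 3.47 CPM. Cell cycle genes were lower for 6 of 20 and higher for 1, with Mki67 at 30.7 and 17.9 CPM. Their median log2 ratio of −0.33 became 0.33 with mitochondrial UMIs limited to 5% and 0.0061 without dividing cells. The lists of class II presentation (8 of 8 lower) and of the B cell receptor (8 of 9 lower) were also lower in the T gate. Cells that passed both the T and the B gate numbered 318 at 12 h and 185 at 24 h, and the summed level of the B cell receptor list in the T gate was 459 and 230 CPM against 3596 and 3258 in the B gate.

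In B cells, interferon response genes were lower for 11 of 18 measured members and higher for 0 (median log2 ratio −1.02), where 4.07% of all 7855 genes in the B gate were lower and 1.73% higher, with a median of −0.10. Mx2 was 41.5 CPM in the control, 46.4 at 12 h, 10.2 at 24 h and 61.6 at 96 h (ratio 0.220, 0.183 to 0.263). Mx1 was 110, 120, 49.1 and 158 CPM (0.408) and Oasl2, an oligoadenylate synthetase relative, was 78.5, 71.4, 33.6 and 49.7 (0.471). The 24 h library was the lowest of the 4 for all 3, although the Oasl2 ratio was 0.821 with mitochondrial UMIs limited to 5%. Oas1a was level between the times, at 25.1 and 27.0 CPM.

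Immediate early genes were higher in the B gate for 8 of 15 members and lower for 1, Klf6 (0.613). Fos was 103, 62.7, 171 and 156 CPM from the control to 96 h (ratio 2.73, 2.54 to 2.94) and Junb was 1766, 1094, 2027 and 2022 (1.85). Both had their lowest level at 12 h. NF-kB targets were higher for 5 of 15 with 0 lower (median 0.42), among them Tnfaip3 (5.87 to 12.9 CPM, 2.19) and Cd83 (297 to 455 CPM, 1.53). Class II presentation genes stayed mostly within 1.5-fold, with 1 of 11 higher (RT1-Ha, 18.7 to 42.1 CPM, 2.25), and their invariant chain Cd74 was 9780 and 10662 CPM. The ceramidase Acer3 (108.5 CPM in the control, 130 at 12 h, 271 at 24 h, 144 at 96 h), carbonic anhydrase 2, Car2 (45.5, 48.6, 101.5 and 62.5 CPM), and Plekha3, a lipid-binding protein of the Golgi (142, 115, 228 and 145 CPM), were the other higher genes, with ratios of 2.09, 2.09 and 1.99. That of Plekha3 was 1.23 with mitochondrial UMIs limited to 5%. Fam129c, a B cell gene, was 44.4, 71.5, 33.4 and 83.1 CPM (0.467).

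RT1-T24-4 and RT1-T24-3, class I histocompatibility genes, differed in opposite directions in lymphocytes. RT1-T24-4 was 56.7 and 178 CPM in the B gate (ratio 3.15), 77.5 and 212 in the T gate (2.73) and 89.9 and 270 in the NK gate (3.0). RT1-T24-3 was 121 and 47.2 CPM in the B gate (0.391) and 73.9 and 31.7 in the T gate (0.429, or 0.772 with mitochondrial UMIs limited to 5%). Genes of this family are close copies of one another, so counting may split reads between them and both values are uncertain.

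Some genes differed alike in every gate. Of 6609 genes measured in all 4 gates, 28 (0.424%) were at least 1.5-fold higher at 24 h in each and 54 (0.817%) lower in each. The interferon response list gave 8 of its 17 members measured everywhere to the lower group, namely Ifit2, Ifit3, Mx2, Oasl, Oasl2, Irf7, Rtp4 and Bst2. The immediate early list gave 4 of 15, Fos, Fosb, Egr1 and Dusp1, to the higher group. Some of these members were low in T cells beside the myeloid gate. Ifit3 was 12.7 and 3.92 CPM in the T gate at 12 h and 24 h, against 127 and 27.9 in the myeloid gate. Egr1 was 3.65 and 13.01 CPM, against 23.02 and 85.03. Mx2 was not low in the B gate, at 46.4 and 10.2 CPM against 23.5 and 1.62 in the myeloid gate. The part of RNA free in the suspension in the lymphocyte ratios of these members was not tested. Fkbp5 was higher in each gate, with ratios of 1.93 in T, 1.78 in B, 2.92 in myeloid and 2.24 in NK cells. Pdia4 was lower in each, with ratios of 0.420, 0.507, 0.256 and 0.349.

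**Figure D5:**
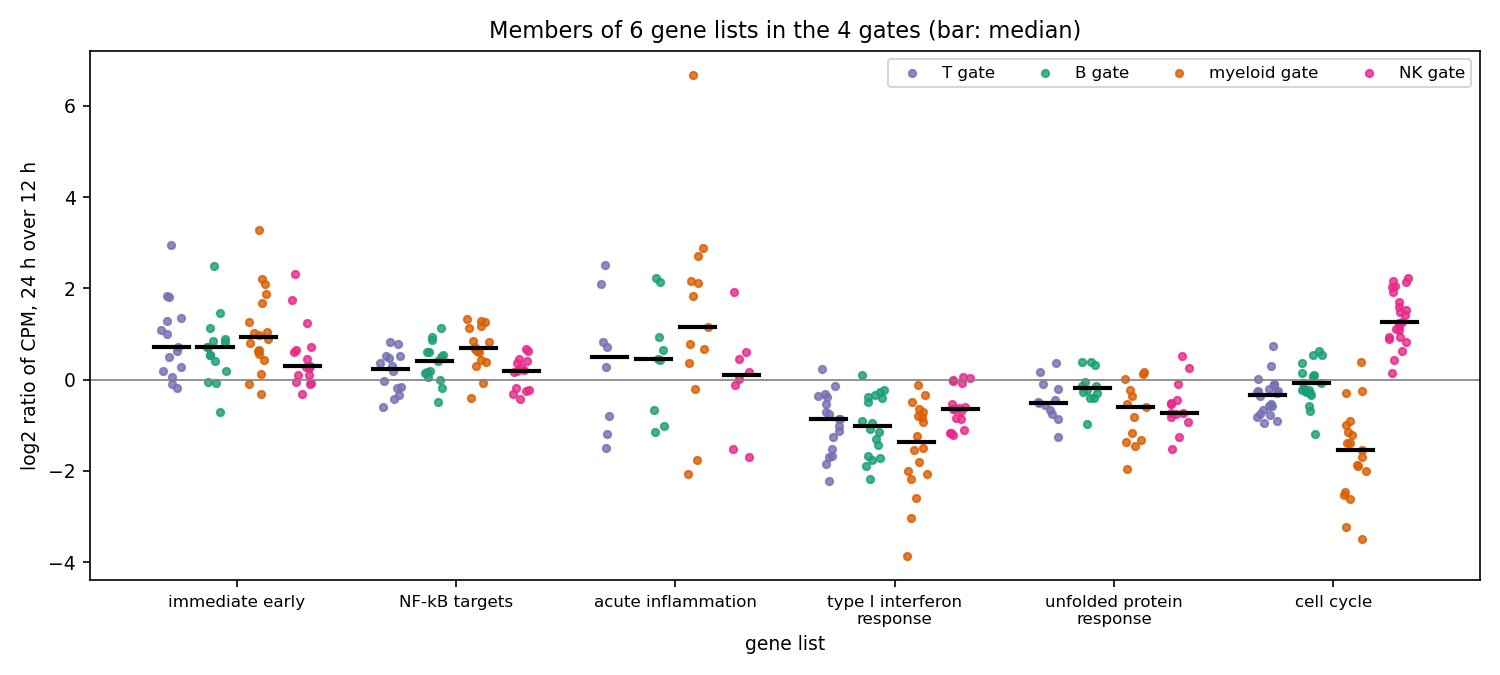
Log2 ratio of CPM (24 h over 12 h) of the measured members of 6 gene lists in the 4 gates; each point is a gene and each bar the median. Interferon response genes lie below 0 in every gate by their median (−0.65 to −1.36), and the cell cycle list splits between the NK gate (1.26) and the myeloid gate (−1.53).

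RNA that is free in the suspension enters all droplets, and for some genes the lymphocyte gates followed the myeloid level. Il1b had ratios of 4.24 in T, 4.43 in B and 3.78 in NK cells, beside 4.37 in myeloid cells, at 24 h levels of 45.7, 73.4 and 57.0 CPM against 475. Lyz2, the gate gene of myeloid cells, was 3144 and 5072 CPM in the B gate against 26322 and 34514 in the myeloid gate. S100a8 was 2132 and 941 CPM in the T gate and 3366 and 1528 in the B gate, both with under 20 CPM in the control. In cells of 1 gate without the neutrophil mark its B gate ratio was 0.587 against 0.454 in the whole gate, where that of S100a9 was 0.495. Of the haemoglobin chains, Hba-a2 was 80.5 to 97.4 CPM at 12 h and 10.4 to 19.7 at 24 h over the 4 gates. The further entry Hba-a2.1 was 201.7 to 265.7 CPM at 12 h and 27.8 to 45.9 at 24 h. Hbb did not follow these 2 entries, at 12.6 to 16.5 CPM at 12 h and 11.2 to 18.1 at 24 h. None of the pancreatic acinar list was measured in any gate. The part of free RNA in the lymphocyte differences was not tested.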

How the data were processed

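The values are UMI counts per gene and cell, which the authors deposited without normalization. The tools Cell Ranger and Seurat and the mouse build mm10 appear in the submitters' processing notes, and no source used here gives tool versions or what each did. The gates, gene lists and naming rule were chosen with earlier results of these data known.

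UMIs were summed over the cells of a gate and divided by the gate's total, giving CPM. Ratios have exact conditional binomial intervals, levels exact Poisson intervals, and ratios of shares a log interval; the intervals of shares are exact binomial (Clopper-Pearson). A gene at 0 UMIs enters a ratio at 3 counts. With 1 library per time no test was made. The kept cells held 58184122 UMIs at 12 h and 71577478 at 24 h.

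Per gate the rule named the 6 largest and 6 smallest ratios, ranked by the bound nearest to 1, among genes with a mean of at least 50 CPM and 20 UMIs. A gene's higher level had to reach 25% of the highest gate's, as a guard against free RNA. Gate genes, mitochondrial, ribosomal, haemoglobin, antigen receptor, Xist, Y-linked and unnamed genes were excepted. From each list the rule takes the extremes and members given for their role. Subgate thresholds were set after values were seen. Doublets were kept, and Scrublet in scanpy 1.11.5 marked 5.45% and 4.23% of cells, removed as an alternative. Other alternatives were single-gate cells, stricter mitochondrial and UMI limits, other scalings, and leaving out dividing or neutrophil-marked cells. Single-gate cells without the neutrophil mark, and T cells without the Ccl5/Nkg7 mark, were alternatives chosen after seeing the data. Values of a few list and marker genes are not reported here. The counting was tested on simulated data. Python 3.11.15, numpy 2.4.6, scipy 1.17.1, pandas 2.3.3 and matplotlib 3.10.9 were used.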

Additional observations from a re-analysis of the deposited data

Results flagged for a closer look

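The cell cycle genes had opposite directions in NK and myeloid cells. The median log2 ratio of the list at 24 h over 12 h was 1.26 in the NK gate and −1.53 in the myeloid gate, and Stmn1 alone had ratios of 3.79 and 0.181. Each rests on 1 library per time, and the difference between the gates was not tested. Without cells that hold a Mki67 or Top2a UMI the medians were 0.69 and −0.90.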

How the results depend on the processing

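No paired analysis was possible because each time had 1 library, and for the same reason no replicate could be left out. Limiting mitochondrial UMIs to 5% kept only 1794 cells at 12 h and 1140 at 24 h (64 of them B gate cells at 24 h) and moved most. The share ratios became 0.769 (T), 0.511 (B) and 0.679 (NK). The genes 2-fold higher became 20 (T), 40 (B), 78 (myeloid) and 55 (NK), and those lower 26 (B), 99 (myeloid) and 132 (NK). The list medians became 0.33 for T cell cycle (from −0.33), −0.45 for myeloid interferon response, −2.61 for myeloid cell cycle and −0.80 for NK immediate early genes. The T gate dendritic list (0.26) and the myeloid immunoglobulin list (1.07) turned direction. Cells of 1 gate gave share ratios of 1.10 (T), 0.828 (B) and 1.31 (myeloid), 5 T genes higher and 14 NK genes lower, and without the neutrophil mark as well (chosen after seeing the data) 5 T genes higher. Doubled gate minimums gave a myeloid share ratio of 1.39, 13 NK genes lower, an NK classical monocyte median of 0.24 and an NK Fcnb ratio of 1.18. Equal weight per cell gave 5 T genes higher, 13 NK genes lower, a myeloid cell cycle median of −0.84 and an Il1r2 ratio of 1.04. Without dividing cells 7 NK genes were higher and 13 lower, the myeloid cell cycle median was −0.90 and the Hist1h2an ratio 0.975. Median-of-ratios scaling left 12 T and 18 myeloid genes lower. A minimum of 10 CPM gave 22, 23, 73 and 105 genes higher and 76, 31, 123 and 96 lower (T, B, myeloid, NK), and no minimum 110, 120, 268 and 240 higher and 616, 405, 760 and 378 lower. Over all settings, 395 ratios of named genes moved by at most 1.5-fold, 58 by more and 3 turned direction. The cause of these shifts was not tested beyond the fewer cells or genes that a setting keeps.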

Other observations

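One unnamed gene model, AABR07039356.2, separated the libraries by presence. It held 1653 UMIs in the control and 1434 at 12 h, but 0 of 71577478 UMIs at 24 h, which allows up to 0.0419 CPM, and 1 UMI at 96 h. The Y-linked gene Eif2s3y was 118, 111, 163 and 166 CPM from the control to 96 h in the myeloid gate. In the T gate it was 63.6, 61.6, 92.1 and 96.0. Cd8a was 147, 152, 315 and 328 CPM in the myeloid gate, but 513, 563, 465 and 528 in the T gate. A difference of animals or batch between the libraries was not tested and cannot be told apart from time. The model LOC689064 was lower at 24 h by a like factor in every gate, with ratios of 0.0801 in T, 0.0902 in B, 0.0857 in myeloid and 0.0718 in NK cells.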
